A study of Homo sapiens with 6 samples.

Results

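The mitochondrial chromosome encodes its own small set of mRNAs, and 10 of them were compared between control and siRNA-treated bladder cancer cells: MT-ND1, MT-ND2, MT-ND3, MT-ND4, MT-ND5, MT-CYB, MT-CO1, MT-CO2, MT-CO3 and MT-ATP6. They were taken by name, as 10 of the 37 genes of that chromosome and of 58288 gene identifiers in the count table. All 10 passed the filter on low counts, which left 14415 genes for testing. T24 cells, a human bladder cancer line, were transfected by Lipofectamine 2000 with a control siRNA (NC) or with 1 of 2 siRNAs, si-circ235-1 and si-circ235-2. Both were directed at the site where the ends of the circular RNA circ235 (circ_0000235) join. Each of the 3 groups held 2 biological replicates, and no untransfected cells, dose or time of harvest was given in the labels. Oligo dT beads were used to enrich the RNA and strand was not kept in sequencing, so the libraries measure polyadenylated RNA and not the circle.

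Mitochondrial DNA is transcribed as long precursors from both strands, and tRNAs lying between the coding frames are cut out to release the individual mRNAs. Most of these mRNAs carry short poly(A) tails, which in several cases complete a stop codon that the DNA encodes only in part. Their proteins are core subunits of the respiratory chain and ATP synthase, which are assembled together with many subunits made from nuclear genes. Oligo dT capture depends on the tails, so a count here reflects the number of RNAs and how well each was captured.

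The annotated 3′ ends are shown because capture used a tail added at the end of the RNA. Each annotated transcript stops with its coding frame, and where the tail was added was not measured. The ends are given for the 3 mRNAs whose counts changed under si-circ235-2 (MT-ND5, MT-CO3 and MT-ND3). Also given are those of MT-CO1, the largest share by group mean, and MT-CYB, the steadiest share. Each line gives the last 30 bases of the GENCODE 29 transcript (GRCh38, plus strand, 5′ to 3′), with the encoded bases of the stop codon in capitals.
MT-ND5, chrM:12337-14148: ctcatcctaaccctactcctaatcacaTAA
MT-CO3, chrM:9207-9990: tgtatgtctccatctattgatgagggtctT
MT-ND3, chrM:10059-10404: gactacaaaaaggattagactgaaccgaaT
MT-CO1, chrM:5904-7445: ttcgaagaacccgtatacataaaatctAGA
MT-CYB, chrM:14747-15887: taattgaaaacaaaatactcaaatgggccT

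Of the 10 mRNAs, 6 had an incomplete stop (MT-ND1, MT-ND2, MT-ND3, MT-ND4, MT-CO3 and MT-CYB) and 4 a complete stop (MT-CO1, MT-CO2, MT-ATP6 and MT-ND5). MT-CO3 and MT-ND3, which were lower under si-circ235-2, shared a single encoded T with MT-ND2, MT-ND4 and MT-CYB, which did not pass the test. Neither kind of 3′ end therefore held only mRNAs that changed.
MT-ND4 shares its first 7 bases with the end of MT-ND4L, the frame in front of it on the same RNA. The join at chrM:10748-10777 is shown because MT-ND4L, unlike MT-ND4, rose under si-circ235-2. The shared bases are in capitals.
MT-ND4L into MT-ND4: aaacctactccaATGCTAAaactaatcgtc

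The libraries held 15373992 to 19912893 counts. Of 14 urothelial and epithelial markers, 5 or 6 a group reached 1 CPM (counts scaled to a common library size): the keratins KRT7, KRT8 (997 to 1947 CPM) and KRT18 were abundant, while KRT5, KRT19 and the uroplakins, surface proteins of differentiated urothelium, stayed below 1 CPM in every library. The 12 markers of other cell types summed to 1.11 to 3.36 CPM. Scaling mattered for the si-circ235-2 libraries, whose TMM factors (edgeR's correction of library size for the makeup of the library) were 1.10 and 1.19 against 0.890 to 1.03 elsewhere. Without TMM the median log2 fold change over all tested genes moved from -0.0038 to 0.25 for si-circ235-2 against NC, and the 4530 calls went from 2270 higher and 2260 lower to 3173 higher and 1294 lower of 4467. Fold changes below are on the TMM scale unless shares are given.

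As a share of all counts, the 10 mRNAs together took 3.96% and 4.59% in the NC libraries, 4.74% and 3.88% under si-circ235-1, and 5.26% and 4.88% under si-circ235-2. Both si-circ235-2 libraries lay above the other 4, while NC and si-circ235-1 overlapped. The means were 4.28% ± 0.444 (SD, n = 2) for NC, 4.31% ± 0.608 for si-circ235-1 and 5.07% ± 0.268 for si-circ235-2. The order of si-circ235-2 over NC depended on scaling: the log2 ratio of the mean shares was 0.25 on plain library size and -0.0058 when library size was multiplied by the TMM factor, an alternative chosen after seeing the data. Against si-circ235-1 the ratio was likewise 0.23 and turned to -0.10. No test was run on the sum, since the members were chosen with earlier results known.

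**Figure D1:**
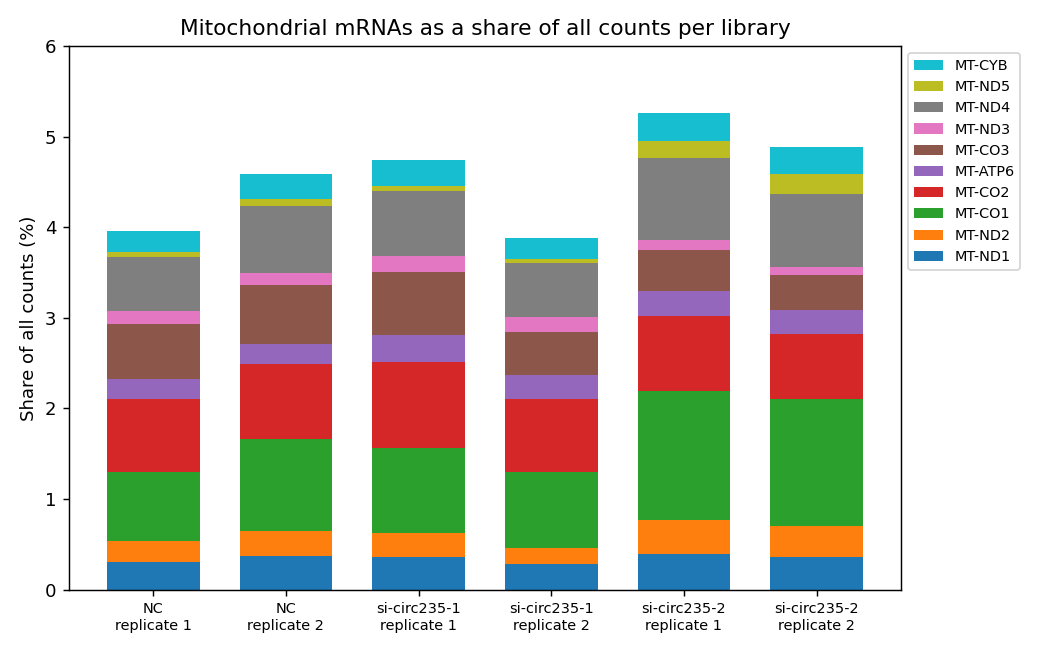
Share of all counts (%, vertical axis) taken by the 10 mitochondrial mRNAs in each of the 6 libraries, with stacked segments for the mRNAs and the whole bar for their sum. The si-circ235-2 bars reach 5.26% and 4.88%, the other 4 between 3.88% and 4.74%.

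Within the 10, the makeup differed more between si-circ235-2 and the other groups than between replicates. The measure was the percentage of the mRNA counts that would have to be assigned to a different member to turn the makeup of 1 library into that of another. It was 3.02% to 4.83% between replicates and 1.88% to 5.79% between NC and si-circ235-1. Between NC and si-circ235-2 it was 9.25% to 15.5%, and between si-circ235-1 and si-circ235-2 it was 12.2% to 15.1%. The ranges for si-circ235-2 did not overlap those of the replicates, whereas the range for si-circ235-1 against NC did. Replicates themselves differed far beyond counting error, since chi-square divided by its 9 degrees of freedom came to 499 for the NC pair, 399 for the si-circ235-1 pair and 283 for the si-circ235-2 pair, so counting error was not used as the error of any share.

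MT-CO1, the subunit that holds the oxygen-reducing site of cytochrome c oxidase, was 19.0% and 22.1% of the 10 in NC, 19.9% and 21.7% under si-circ235-1, and 26.9% and 28.8% under si-circ235-2. MT-CO2, the subunit that takes electrons from cytochrome c, went the other way: it was 20.4% and 18.0% in NC, 19.9% and 20.6% under si-circ235-1, and 15.7% and 14.7% under si-circ235-2. MT-CO3, the third core subunit of that enzyme, was 15.1% and 14.1% in NC, 14.5% and 12.2% under si-circ235-1, and 8.58% and 7.87% under si-circ235-2. In each case the si-circ235-2 libraries lay outside the range of the other 4. Groups without overlap in these shares were not particular to si-circ235-2. Against NC this held for 8 of the 10 mRNAs under si-circ235-2. Under si-circ235-1 it held for 5 of the 10 (MT-ND1, MT-ND2, MT-ATP6, MT-ND3 and MT-ND5). Shares of the 10 exist only for the 10, so no rate over all tested genes stands beside these counts. The 3 cytochrome c oxidase mRNAs together moved less, from a mean of 54.4% in NC and 54.4% under si-circ235-1 to 51.3% under si-circ235-2.

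Among the 5 mRNAs for membrane subunits of complex I, the NADH dehydrogenase, MT-ND5 and MT-ND3 moved apart. MT-ND5 was 1.29% and 1.72% of the 10 in NC, 1.21% and 1.16% under si-circ235-1, and 3.41% and 4.47% under si-circ235-2. MT-ND3 was 3.60% and 2.82% in NC, 3.80% and 4.13% under si-circ235-1, and 2.05% and 1.82% under si-circ235-2. Per base of transcript, MT-ND5 stood at 0.0683 and 0.117 of MT-ND3 in NC, at 0.0608 and 0.0535 under si-circ235-1, and at 0.317 and 0.468 under si-circ235-2. The corresponding ratio of the longest to the shortest cytochrome c oxidase mRNA, MT-CO1 over MT-CO2, was 0.413 and 0.544 in NC, 0.442 and 0.467 under si-circ235-1, and 0.759 and 0.868 under si-circ235-2. Both ratios were higher in the si-circ235-2 libraries than in any other library.

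MT-CYB and MT-ND1 kept nearly the same share throughout. MT-CYB, the cytochrome b of complex III and its only subunit made in mitochondria, was 5.95% to 6.12% of the 10 in all 6 libraries. MT-ND1 was 7.86% and 8.02% in NC, 7.59% and 7.46% under si-circ235-1, and 7.49% and 7.42% under si-circ235-2, so both NC libraries stood above those of the siRNAs. MT-ND4 was 15.1% to 16.1% in the NC and si-circ235-1 libraries and 17.3% and 16.6% under si-circ235-2, and MT-ND2 was 5.85% and 6.01% in NC, 5.58% and 4.41% under si-circ235-1, and 7.24% and 6.91% under si-circ235-2. MT-ATP6, the proton-conducting subunit of ATP synthase, was highest under si-circ235-1, at 6.35% and 6.91%, against 5.62% and 5.03% in NC and 5.35% and 5.31% under si-circ235-2.

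**Figure D2:**
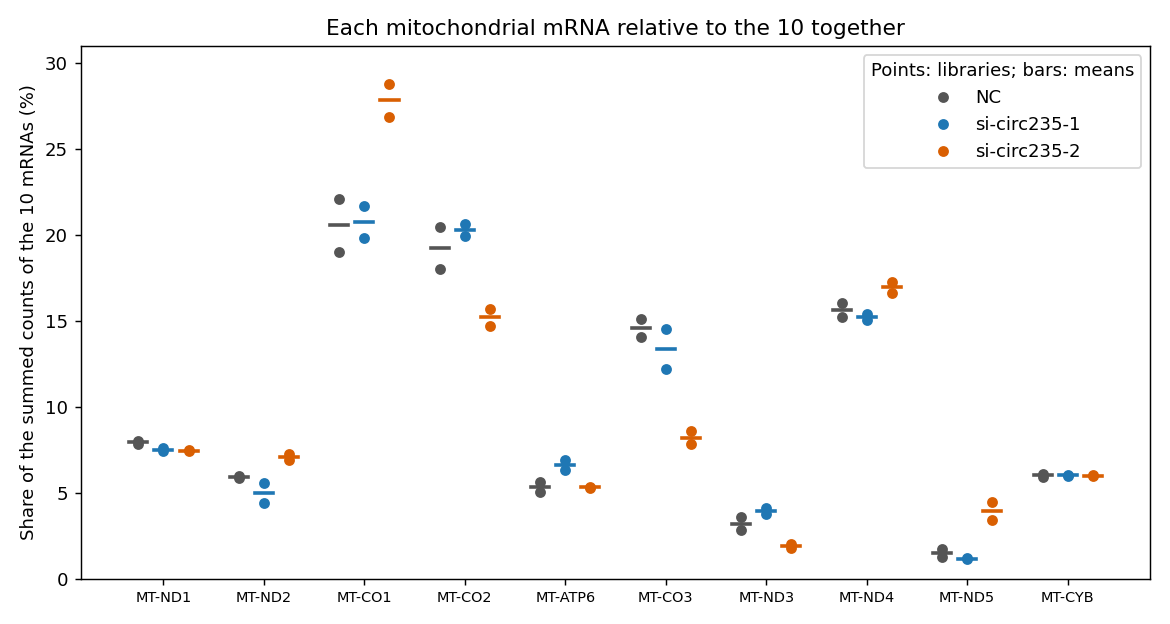
Share of the summed counts of the 10 mitochondrial mRNAs (%, vertical axis) held by each mRNA (horizontal axis), with points for the 2 libraries of a group and a bar for their mean. MT-CO1 and MT-ND5 sit highest under si-circ235-2, MT-CO2, MT-CO3 and MT-ND3 lowest, and MT-CYB stays between 5.95% and 6.12% in all 6 libraries.

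The comparison of si-circ235-1 with NC asked whether single mRNAs differed under that siRNA. None of the 10 passed the edgeR test, where 5.88% of all tested genes did (847 of 14415, 2.24% higher and 3.64% lower). The lowest adjusted p from edgeR among them was 0.316, for MT-ATP6, none of the 10 fell below 0.05 before adjustment (0 of 10), and the DESeq2 count was 0. Log2 fold changes ran from -0.25 for MT-ND5 to 0.40 for MT-ATP6, with a median of 0.07 beside -0.03 over all tested genes. On the TMM scale 2 of the 10, MT-ATP6 and MT-ND3, had groups that did not overlap, compared with 55% of all tested genes.

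MT-ATP6 was at 2505 and 2236 TMM CPM in NC and at 3288 and 2983 under si-circ235-1, a log2 fold change of 0.40 (SE 0.236). MT-ND3 was at 1603 and 1253 in NC and at 1966 and 1785 under si-circ235-1, a log2 fold change of 0.39 (SE 0.240, edgeR adjusted p = 0.339). Both were higher in the 2 si-circ235-1 libraries than in the 2 NC libraries, but neither passed the test.

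With si-circ235-2, MT-ND5 rose and MT-CO3 and MT-ND3 fell against NC. This was 3 of 10 called, where 31.4% of all tested genes were called, so the share was close to that over all genes. Of all tested genes, 15.7% were called higher and 15.7% lower. The median log2 fold change of the 10 was -0.0072 beside -0.0038 over all tested genes, and 6 of the 10 had groups that did not overlap, where 71.4% of all tested genes did.

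MT-ND5, the largest mitochondrially encoded subunit of complex I, had 8735 and 12534 counts in NC, 8948 and 8964 under si-circ235-1, and 27553 and 38307 under si-circ235-2. On the TMM scale this was 573 and 766 CPM in NC, 626 and 500 under si-circ235-1, and 1626 and 1831 under si-circ235-2. The si-circ235-2 libraries were far above all others and the other 4 overlapped. The log2 fold change against NC was 1.37 (SE 0.238, edgeR adjusted p = 0.00332), or 2.58-fold higher, at place 763 from the top of the 14415 tested genes. Leaving out NC replicate 1, the lower of the control libraries, gave 1.17 with an edgeR adjusted p of 0.0505.

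MT-CO3 was at 6745 and 6268 TMM CPM in NC, 7520 and 5275 under si-circ235-1, and 4095 and 3225 under si-circ235-2. The si-circ235-2 libraries were the lowest, and the si-circ235-1 libraries spread around those of NC. The log2 fold change against NC was -0.83 (SE 0.284, edgeR adjusted p = 0.0457), or 1.78-fold lower. The call was lost in the fit on the libraries of the 2 conditions alone (-0.83), without TMM factors (-0.58) and with a length and GC trend removed (-0.68), and it was also lost when any library but si-circ235-2 replicate 1 was left out (-0.87 to -0.67).

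MT-ND3, the smallest of the 10 and a complex I subunit, had 24430 and 20500 counts in NC, 28107 and 31972 under si-circ235-1, and 16613 and 15618 under si-circ235-2. On the TMM scale its si-circ235-2 libraries, at 980 and 747 CPM, were below the 1253 to 1966 of the other 4. The log2 fold change against NC was -0.73 (SE 0.241, edgeR adjusted p = 0.0411). The call was lost under the same settings as for MT-CO3, with values of -0.88 to -0.54 when a library was left out. When a smooth dependence on transcript length and GC content was taken out of each library, the value was -0.28 (edgeR adjusted p = 0.371).

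The 7 other members did not pass the test against NC. MT-CO1 was at 8479 and 9833 TMM CPM in NC and at 12834 and 11806 under si-circ235-2, without overlap, and its log2 fold change was 0.43 (SE 0.276, edgeR adjusted p = 0.261). Without TMM factors it was 0.67 and was called (edgeR adjusted p = 0.032). MT-CO2 was at 9113 and 8016 in NC and at 7504 and 6036 under si-circ235-2, a log2 fold change of -0.34 (SE 0.277). MT-ND2, MT-ND4, MT-CYB, MT-ATP6 and MT-ND1 lay between -0.10 and 0.25.

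Set against each other, the siRNAs differed in the same 3 mRNAs, where 39.7% of all tested genes were called (21.1% higher and 18.6% lower). Groups did not overlap for 6 of the 10, where this held for 72.1% of all tested genes. MT-ND5 was higher under si-circ235-2 than under si-circ235-1 by a log2 fold change of 1.62 (SE 0.239, edgeR adjusted p = 0.000968). MT-ND3 was lower, at -1.12 (SE 0.243, edgeR adjusted p = 0.00483), and so was MT-CO3, at -0.81 (SE 0.283, edgeR adjusted p = 0.0427). The MT-CO3 call was lost without TMM factors (-0.48), with the length and GC trend removed (-0.51) and when any library but si-circ235-2 replicate 1 was left out (-1.05 to -0.53). With that trend removed the MT-ND3 call was lost too (-0.52), and MT-ND2 was called (0.83). Without TMM factors MT-ND2 (0.72) and MT-CO1 (0.66) were called. Among the rest, the values nearest the threshold were -0.51 for MT-CO2 (SE 0.277, edgeR adjusted p = 0.169) and -0.41 for MT-ATP6 (SE 0.236, edgeR adjusted p = 0.193). DESeq2 called MT-CO2 as well. These comparisons share libraries with those against NC and are not independent of them.

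The 3 changed mRNAs were the longest of the 10, the shortest and 1 of middling length. Transcripts ran from 346 bases (MT-ND3) to 1812 bases (MT-ND5), and MT-CO3 had 784. Across the 10, the correlation of log2 fold change with log2 length for si-circ235-2 against NC was 0.80 (Pearson) and 0.78 (Spearman), and 0.67 (Pearson) over the 8 left without MT-ND3 and MT-ND5. For si-circ235-1 against NC it was -0.74 and -0.61, and -0.40 over the same 8. These are descriptions over 10 mRNAs that share libraries, precursors and controls, with no test. They do not extend to MT-ATP8 (207 bases) and MT-ND4L (297 bases), which are outside the 10 and shorter than MT-ND3. Against NC these had log2 fold changes of 2.93 and 3.03 under si-circ235-2, and of -1.09 and -0.59 under si-circ235-1. They share RNAs with MT-ATP6 and MT-ND4, so for these pairs the annotated lengths are those of frames and not of whole RNAs.

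Fold changes of nuclear genes also rose with length under si-circ235-2. Among nuclear protein-coding genes, classed by their longest annotated transcript, the median log2 fold change against NC was -1.36 below 500 bases (13 genes), -1.08 from 500 to under 1000 bases (274 genes), -0.64 from 1000 to under 2000 bases (1680 genes), -0.12 from 2000 to under 4000 bases (4714 genes) and 0.37 at 4000 bases and over (5498 genes). All 10 mitochondrial mRNAs lay above the nuclear median of their own length class, by 0.25 (MT-CO3) to 2.01 (MT-ND5). MT-ND5 was above 98.6% of the 1680 nuclear genes of its class, MT-CO1 above 94.0%, MT-CO3 above 64.6% of its 274, and MT-ND3 above 8 of its 13. With si-circ235-1 the nuclear medians ranged from 0.41 in the shortest class to -0.05 from 2000 to under 4000 bases, and the mitochondrial mRNAs lay on both sides of them. What part transcript length or RNA quality had in the changes was not tested. After the length and GC trend had been taken out, MT-ND5 stayed called in si-circ235-2 against NC, and none of the other 9 was called.

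**Figure D3:**
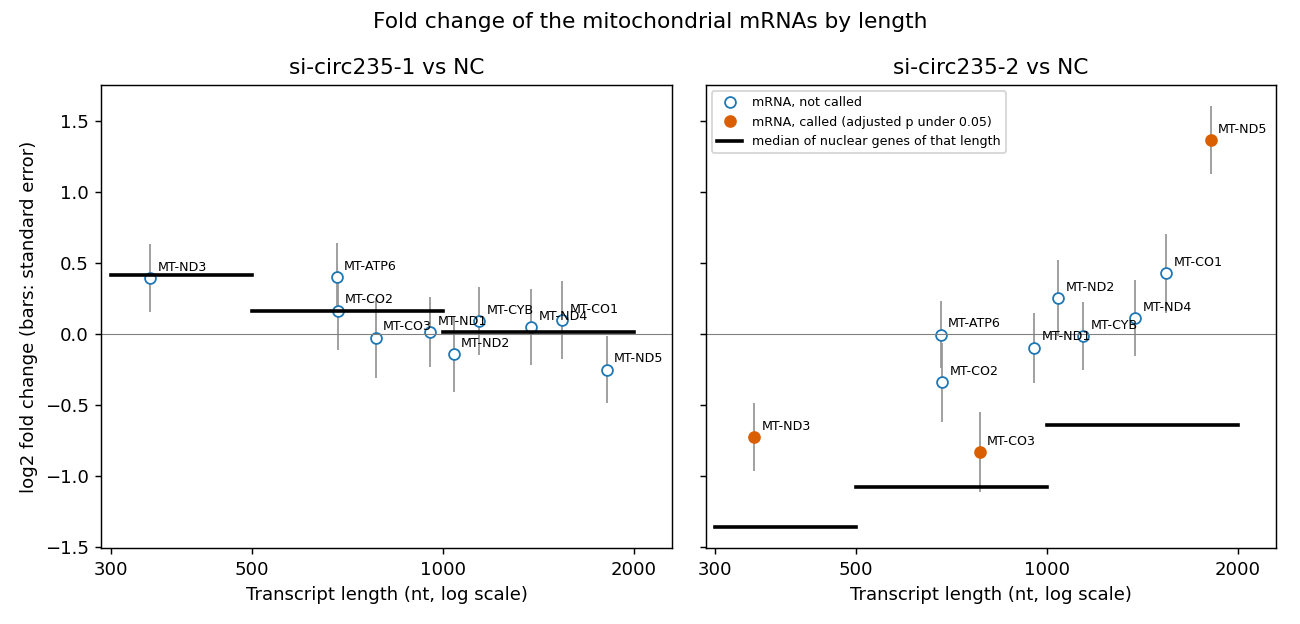
Log2 fold change (vertical axis, bars give the standard error) of the 10 mitochondrial mRNAs against transcript length (bases, log axis) for each siRNA against NC, with filled points for mRNAs called by edgeR and black lines for the median of nuclear protein-coding genes in each length class. With si-circ235-2 the points rise from MT-ND3 (-0.73) to MT-ND5 (1.37) and all lie above the black lines. The shorter MT-ATP8 and MT-ND4L, which rose under si-circ235-2, are not plotted.

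Counted per length within a group, the order of levels shifted mainly in its middle. MT-CO2 was highest and MT-ND5 lowest in all 3 groups. The highest stood 33.4 times above the lowest in NC, 45.2 times in the si-circ235-1 group and 10.3 times in the si-circ235-2 group. In NC the order, in CPM per kilobase on plain library size, was MT-CO2 (11968 ± 178, SD, n = 2), MT-CO3 (7948 ± 427), MT-CO1 (5734 ± 1198), MT-ND4 (4866 ± 684), MT-ND3, MT-ND1, MT-ATP6, MT-ND2, MT-CYB and MT-ND5 (359 ± 110). Neighbours that overlapped in NC were MT-CO1 with MT-ND4, MT-ND3 with MT-ND1, MT-ND1 with MT-ATP6 and MT-ND2 with MT-CYB.

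With si-circ235-2, MT-CO1 (9148 ± 38.9) and MT-ND4 (6252 ± 499) both stood above MT-CO3 (5329 ± 607), without overlap between neighbours, and MT-ND3 had dropped to place 8 (2847 ± 391), where it overlapped MT-CYB. With si-circ235-1, MT-ND3 stood at place 4 (4926 ± 404) and overlapped MT-ND4 (4767 ± 595). MT-CO3 overlapped MT-CO1 there. These levels also carry the capture and fragmentation of each RNA, so they order counts and not molecules.

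Of the other mitochondrial transcripts, MT-ND4L and MT-ATP8 had larger fold changes under si-circ235-2 than any of the 10. MT-ND4L, a complex I subunit whose frame precedes and overlaps that of MT-ND4, had 530 and 1414 counts in NC, 643 and 639 under si-circ235-1, and 7390 and 11558 under si-circ235-2. MT-ATP8, an ATP synthase subunit whose frame precedes MT-ATP6 and overlaps it by 46 bases, had 32 and 41 counts in NC, 21 and 13 under si-circ235-1, and 265 and 410 under si-circ235-2. Both rose under si-circ235-2 against NC, by log2 fold changes of 3.03 (SE 0.364, edgeR adjusted p = 0.00179) and 2.93 (SE 0.334, edgeR adjusted p = 0.00179). The MT-ND4L value was 2.51 without NC replicate 1 and 3.84 without NC replicate 2. Under si-circ235-1 neither passed the test (-0.59, SE 0.345, and -1.09, SE 0.382). The NC libraries differed in MT-ND4L, at 34.8 and 86.4 TMM CPM, and both were below the si-circ235-2 libraries at 436 and 552.

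Since each pair is carried on the same RNA, the upstream frame can be read as a percentage of the downstream frame per base. MT-ND4L was 2.37% and 5.61% of MT-ND4 in NC, 2.68% and 2.49% under si-circ235-1, and 24.5% and 37.6% under si-circ235-2. MT-ATP8 was 0.276% and 0.369% of MT-ATP6 in NC, 0.147% and 0.0800% under si-circ235-1, and 2.01% and 2.96% under si-circ235-2. Both percentages were below 100% in every library and were highest under si-circ235-2, while MT-ND4 and MT-ATP6 did not pass the test (log2 fold changes of 0.11 and -0.0033). How reads in shared bases were assigned is not given in the sources used here.

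**Figure D4:**
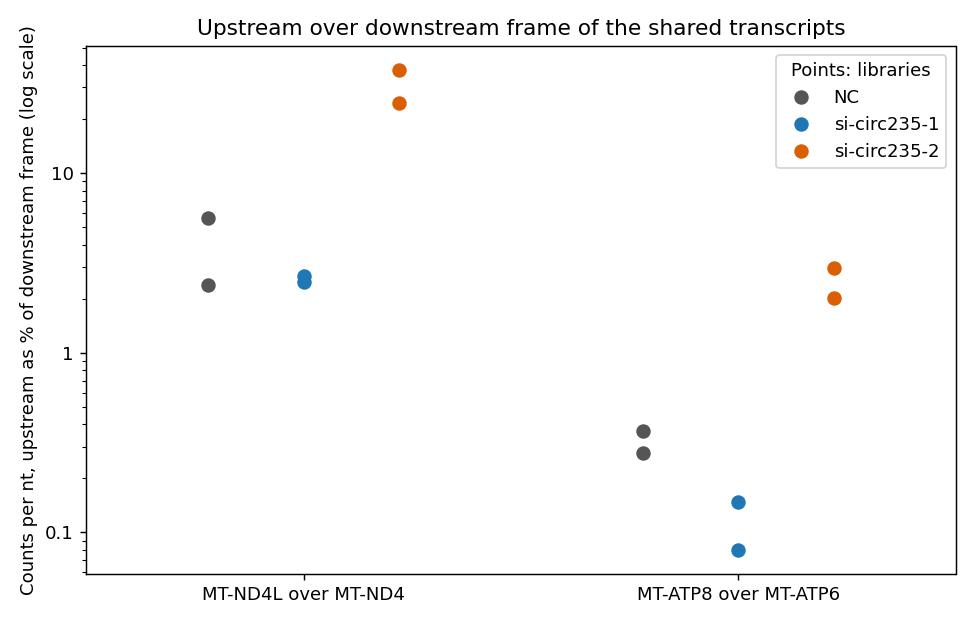
Counts per base of the upstream frame as a percentage of the downstream frame on the same RNA (vertical log axis) for MT-ND4L over MT-ND4 and MT-ATP8 over MT-ATP6, with a point for each library. The si-circ235-2 points (24.5% and 37.6%, 2.01% and 2.96%) lie above all others in both pairs.

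Of the ribosomal RNAs, which are transcribed first on the heavy-strand precursor, MT-RNR1 fell. MT-RNR1, the small-subunit rRNA, was at 1230 and 1098 TMM CPM in NC, 1326 and 1110 under si-circ235-1, and 674 and 568 under si-circ235-2, a log2 fold change against NC of -0.91 (SE 0.220, edgeR adjusted p = 0.0115). The call was lost without NC replicate 1 (-0.83) and without si-circ235-2 replicate 2 (-0.79). MT-RNR2, the large-subunit rRNA, did not pass the test (-0.25, SE 0.247). MT-ND6, the complex I subunit read from the opposite strand, was likewise not called (0.02, SE 0.195). Its frame (chrM:14149-14673, minus strand) ends right beside the end of the MT-ND5 frame at chrM:14148. Strand was not kept, so MT-ND6 counts cannot be assigned to the opposite strand alone. The mitochondrial tRNAs summed to 0.0107% ± 0.00137 (SD, n = 2) of all counts in NC, 0.0109% ± 0.000302 under si-circ235-1 and 0.0166% ± 0.00109 under si-circ235-2.

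Nuclear pseudogene copies of mitochondrial mRNAs could share reads with the 10. They were taken by symbol (394 genes), which did not leave out copies of MT-ND4L, MT-ND6 and MT-ATP8. Counts of all copies summed to 0.415% ± 0.0700 (SD, n = 2) of those of the 10 for NC, 0.398% ± 0.0934 for si-circ235-1 and 0.604% ± 0.0559 for si-circ235-2. The copies with most counts lay next to each other on chromosome 1: MTATP6P1 (chr1:633696-634376, 17843 counts in all 6 libraries), MTCO1P12 (chr1:631074-632616, 2211 counts) and MTND2P28 (chr1:629640-630683, 761 counts). Their counts were highest in the si-circ235-2 libraries, and the sum of all copies stayed below 1% of the 10 in every library. Against its own gene MTATP6P1 was larger: its counts were 5.15% and 7.44% of those of MT-ATP6 in NC, 6.21% and 3.83% under si-circ235-1, and 8.58% and 9.84% under si-circ235-2.

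Subunits of the same complexes that are encoded in the nucleus fell together under si-circ235-2. Of 70 tested, 54 were called lower and 0 higher (77.1%), with a median log2 fold change of -1.01. Over all tested genes 15.7% were called lower and 15.7% higher, or 31.4% in either direction. COX6B1 of cytochrome c oxidase was at 523 and 329 TMM CPM in NC and at 127 and 88.2 under si-circ235-2 (-1.99, SE 0.266, edgeR adjusted p = 0.00179). NDUFB7 of complex I (-1.95, SE 0.276) and ATP5F1D of ATP synthase (-1.88, SE 0.300) came next. The median of the 10 mitochondrial mRNAs in that comparison was -0.0072, and no test of the difference between these medians was run.

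These nuclear subunits were short, with a median longest transcript of 1504 bases. From 500 to under 1000 bases, the 21 subunits had a median log2 fold change of -1.19 and the 253 other nuclear protein-coding genes -1.06. From 1000 to under 2000 bases it was -1.02 for 22 subunits and -0.64 for 1658 others, and from 2000 to under 4000 bases -0.93 for 17 subunits and -0.11 for 4697 others. At 4000 bases and over it was -0.77 for 9 subunits and 0.37 for 5489 others, and the 1 subunit under 500 bases stood at -0.14, above the -1.45 of the 12 others. Without NC replicate 1 the number called lower was 16, and without si-circ235-2 replicate 2 it was 36. With the length and GC trend removed it was 50, with 1 higher, beside 2086 lower and 1658 higher over all tested genes. With si-circ235-1, 0 of the 70 were called by edgeR in either direction (11 at an unadjusted p under 0.05), DESeq2 called 1, and the median was 0.13.

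Of 47 tested nuclear genes for mitochondrial transcription, RNA processing, modification, polyadenylation and decay, 2 were called higher and 10 lower under si-circ235-2 (25.5%, below the 31.4% of all tested genes), with a median of -0.15. Without TMM factors the numbers were 4 higher and 4 lower (median 0.10), and without NC replicate 1 it was 0 and 2. HSD17B10 (-1.46, SE 0.257) and TRMT10C (-1.39, SE 0.371), both subunits of the mitochondrial RNase P that cuts the 5′ ends of tRNAs, and the rRNA methyltransferase TFB1M (-1.27, SE 0.248) were the lowest. The TRMT10C value was -2.35 with si-circ235-2 replicate 2 left out and -0.83 with replicate 1 of that group left out, and its call was lost without TMM factors (-1.11) and without NC replicate 1 (-1.39). FASTKD5 (0.89, SE 0.229), an RNA-binding protein needed for processing at sites without a tRNA, and ANGEL2 (0.68, SE 0.218) were the 2 that rose. Both calls were lost without NC replicate 1, and that of ANGEL2 also when any other library of these conditions was left out or low counts were kept.

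POLRMT, the mitochondrial RNA polymerase, was at 338 and 277 TMM CPM in NC, 330 and 288 under si-circ235-1 and 213 and 178 under si-circ235-2 (-0.65, SE 0.199, edgeR adjusted p = 0.0303). Its call was lost with the length and GC trend removed (-0.24), without TMM factors (-0.39), without NC replicate 1 (-0.51) and without si-circ235-2 replicate 2 (-0.52). SLIRP, which with LRPPRC stabilises mitochondrial mRNAs, was at 155 and 97.8 in NC, 137 and 198 under si-circ235-1 and 56.9 and 51.6 under si-circ235-2 (-1.22, SE 0.253, edgeR adjusted p = 0.00598), and its call was lost without NC replicate 1 (-0.86). LRPPRC itself (0.14, SE 0.217), the transcription factor TFAM (-0.15, SE 0.218), the poly(A) polymerase MTPAP (0.06, SE 0.208), and PNPT1 (0.27, SE 0.173) and SUPV3L1 (0.06, SE 0.187), which together degrade mitochondrial RNA, did not pass the test. With si-circ235-1, 0 of the 47 were called by edgeR and 0 by DESeq2, 10 had an unadjusted p under 0.05, and these 7 genes ranged from -0.40 (PNPT1) to 0.41 (SLIRP). With the length and GC trend removed 4 of the 47 were called lower, among them PNPT1 (-0.53), beside 969 lower over all tested genes. With low counts kept 1 of the 47 was called lower.

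Of 23 tested genes that copy and maintain mitochondrial DNA, 4 were called higher and 6 lower under si-circ235-2. This was 43.5%, against 31.4% of all tested genes (15.7% higher and 15.7% lower). The median log2 fold change was -0.0542, beside -0.0038 over all tested genes. The catalytic subunit of the DNA polymerase, POLG (1.21, SE 0.291), RNASEH1 (0.97, SE 0.231) and the ligase LIG3 (0.85, SE 0.222) were the highest, and ATAD3A (-0.94, SE 0.224), the topoisomerase TOP1MT (-0.78, SE 0.200) and the single-strand binding protein SSBP1 (-0.78, SE 0.184) the lowest. Without NC replicate 1, 0 of the 23 were called. Without TMM factors 5 were higher and 2 lower, beside 3173 higher and 1294 lower over all tested genes. Taking out the length and GC trend gave 2 and 2, beside 1658 higher and 2086 lower over all tested genes. LIG3 (0.09), ATAD3A (-0.27), TOP1MT (-0.34) and SSBP1 (-0.51) were then no longer called. With si-circ235-1 only the protease LONP1 was called in the fit with TMM factors and no trend removed, at 223 and 165 TMM CPM in NC and 367 and 315 with the siRNA (0.81, SE 0.209, edgeR adjusted p = 0.0472), and this call was lost when a library of either group was left out. With the length and GC trend removed 3 of the 23 were called higher and 1 lower, beside 895 higher and 969 lower over all tested genes.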

How the data were processed

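The authors sequenced poly(A)-enriched RNA of T24 cells without strand information (3 conditions, 2 biological replicates each) and deposited raw read counts for each gene (whole numbers, not normalized). The submitters' processing notes name FastQC, cutadapt, STAR and hg38. For the counting tool, the annotation and the treatment of reads with several matches, nothing was given in the sources used here. The last of these could move reads between mitochondrial genes and their nuclear copies. Conditions came from the sample labels, and columns were matched to libraries by name.

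Symbols, transcripts, longest-transcript length and GC content came from GENCODE release 29 (GRCh38), which matched 99.5% of 58288 identifiers. Counts of all 6 libraries were filtered by filterByExpr and fitted in edgeR 4.0.16 (R 4.3.3) with TMM factors and the quasi-likelihood test, with Benjamini-Hochberg adjustment over 14415 genes and a threshold of 0.05. P-values rest on the spread between the 2 libraries of each group, pooled over all 6 libraries and moderated across genes. The scripts were tested on simulated data. Alternatives were no TMM factors, factors from nuclear genes, DESeq2 1.42.0, no filter on low counts, 2 conditions alone, a replicate block, a length and GC trend (splines with 5 degrees of freedom) removed, and each library left out. Library sizes set to the 10 mRNAs, and shares on TMM-corrected library size, were chosen after seeing the data. The members and gene lists were chosen with earlier results of these data known. Besides the 10 and the other mitochondrial transcripts, genes were named as the 3 largest called rises and falls per list at a mean of at least 5 CPM, 7 factors of mitochondrial RNA metabolism in any case, the 3 pseudogene copies with most counts, and the 5 nuclear genes correlating best with the summed share, of which 1 is not reported here.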

Additional observations from a re-analysis of the deposited data

Results flagged for a closer look

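By the edgeR test of si-circ235-2 against si-circ235-1, which called 39.7% of all tested genes, 6 mitochondrial transcripts differed between the siRNAs. Among the 10 mRNAs these were MT-ND5 (log2 difference 1.62), MT-ND3 (-1.12) and MT-CO3 (-0.81). Outside the 10 they were MT-ATP8 (4.03), MT-ND4L (3.62) and MT-RNR1 (-0.97). MT-ND6 (0.241) and MT-RNR2 (-0.469) did not pass. MT-ND6 was called with the length and GC trend removed (0.728) and without TMM factors (0.574), and MT-RNR2 by DESeq2 (-0.495). In all 6 called transcripts the libraries of the siRNAs did not overlap on the TMM scale. This held for 72.1% of all tested genes. The MT-CO3 and MT-ND3 calls were lost with the length and GC trend removed (-0.505 and -0.519). That of MT-CO3 was also lost without TMM factors (-0.478). The MT-RNR1 call was lost without si-circ235-1 replicate 1 (-0.84).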

How the results depend on the processing

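Of the 10 mRNAs, 3 were called in si-circ235-2 against NC. The number was 1 (MT-ND5) with the 2 conditions alone and 1 (MT-ND5) with the length and GC trend removed, and 0 to 3 with a library left out, with 0 without NC replicate 1 and 1 without NC replicate 2, either si-circ235-1 replicate or si-circ235-2 replicate 2. With the replicate number as a block it stayed 3, as did the 0 and 3 of the other comparisons. The deviations of equally numbered libraries correlated at -0.0943 to 0.149, so the numbers were not taken to pair samples. The summed share turned from higher to lower under TMM-corrected library size, by -0.00582 against NC and -0.0981 against si-circ235-1, because the si-circ235-2 factors exceed 1. For the 10 mRNAs, 144 fold changes with a library left out kept their direction and their side of the threshold, 20 changed sign and 16 lost the call. Under the other settings 205 kept both, 21 changed sign, 9 lost the call and 5 gained one. With library size from the 10 mRNAs, TRMT10C (-1.33) and ANGEL2 (0.692) in si-circ235-2 and LONP1 (0.722) in si-circ235-1 were no longer called against NC. Depth limited MT-ATP8, which had 13 to 41 counts in each library outside si-circ235-2.

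Values that changed sign were all without a call. For si-circ235-1 against NC, the length and GC trend gave -0.117 for MT-ND1, -0.0295 for MT-CO1, -0.117 for MT-ND4, -0.0618 for MT-CYB, -0.104 for MT-RNR1 and -0.0498 for SUPV3L1. Library size from the 10 mRNAs gave -0.0772 for MT-ND1, -0.0382 for MT-ND4, -0.00217 for MT-CYB, -0.0263 for MT-RNR1, -0.0792 for POLRMT and -0.0712 for SUPV3L1, and no TMM gave -0.064 for MT-ND1, -0.0297 for MT-ND4, -0.00761 for MT-RNR1, -0.0591 for POLRMT and -0.0602 for SUPV3L1. Leaving out libraries gave -0.138 to 0.154 for MT-ND1, -0.473 to 0.133 for MT-ND2, -0.00387 to 0.249 for MT-CO1, -0.307 to 0.211 for MT-CO3, -0.0701 to 0.164 for MT-ND4, -0.446 to 0.0123 for MT-ND5, -0.0599 to 0.226 for MT-CYB, -1.1 to 0.25 for MT-ND4L, -0.0728 to 0.19 for MT-RNR1, -0.0963 to 0.159 for POLRMT and -0.089 to 0.116 for SUPV3L1.

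For si-circ235-2 against NC, the trend gave 0.0598 for MT-ND1, 0.215 for MT-ATP6, 0.11 for MT-CYB, -0.409 for LRPPRC, -0.364 for MTPAP and -0.0703 for SUPV3L1, no TMM gave 0.156 for MT-ND1, 0.255 for MT-ATP6, 0.24 for MT-CYB, 0.0126 for MT-RNR2 and 0.106 for TFAM, and library size from the 10 gave 0.00147 for MT-ATP6. Leaving out libraries gave -0.218 to 0.0165 for MT-ND1, -0.125 to 0.107 for MT-ATP6, -0.0324 to 0.245 for MT-ND4, -0.121 to 0.0891 for MT-CYB, -0.0774 to 0.105 for MT-ND6, -0.127 to 0.358 for LRPPRC, -0.0448 to 0.152 for MTPAP and -0.456 to 0.0986 for TFAM. For si-circ235-2 against si-circ235-1, the trend gave 0.177 for MT-ND1, 0.000112 for MT-ATP6 and 0.172 for MT-CYB, no TMM gave 0.22 for MT-ND1 and 0.23 for MT-CYB, and leaving out libraries gave -0.255 to 0.0383 for MT-ND1, -0.0843 to 0.194 for MT-ND4 and -0.242 to 0.0435 for MT-CYB. For changes in scale or in the libraries fitted the cause was not tested.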

Other observations

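Over the 6 libraries, nuclear genes whose log2 CPM closely followed the log2 summed share of the 10 were MIPEP, a peptidase that processes proteins imported into mitochondria (Pearson r = 0.996), CENPBD1P1 (0.994), TGM2 (0.990) and ARSB (0.986), out of 10362 compared. The 6 points are the same libraries for every gene, 2 of which stand above the rest, and both measures share library size as denominator.

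Beside the mitochondrial values, the nuclear-retained RNAs NEAT1 and MALAT1 and the histone genes, whose mRNAs lack a poly(A) tail, were each a small share of all counts. NEAT1 was 0.0186% ± 0.000342 (SD, n = 2) in NC, 0.00525% ± 0.000267 under si-circ235-1 and 0.0159% ± 0.000663 under si-circ235-2. In the same order, MALAT1 was 0.0109% ± 0.00222, 0.00604% ± 0.000167 and 0.0102% ± 0.00493. The replication-dependent histone genes summed to 0.0386% ± 0.00132, 0.0582% ± 0.00147 and 0.0383% ± 0.00237. Their part in any result was not tested.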
